A study of Mus musculus with 36 samples.

Results

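Intestines of Casp8 1xDA/1xDA embryos, which carry the caspase-8 D387A allele and no other targeted allele in their label, were compared with intestines of Mlkl-/- embryos, the control genotype of the same set. The comparison took in every gene with enough reads, 18360 genes, and rested on 6 of the 36 libraries of the series, 3 per genotype. Libraries were assigned by the genotype and title of their labels (Casp8 D387A KI for the mutant, Mlkl KO with the title word Control for the control), and no measured value entered the choice. All 6 were untreated whole intestines of embryos at E18.5, each deposited as a separate biological replicate, and the titles begin with a different number for each genotype, whose meaning the labels do not give. By the methods of the study, the mice were on a C57BL/6N background.

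By their labels the groups differed at 2 loci. Casp8 1xDA/1xDA embryos had the mutant Casp8 and, by their label, intact Mlkl, whereas the label of the control embryos names the loss of Mlkl and no Casp8 allele. A difference between the groups therefore cannot be told apart as an effect of either allele. Nor can it be told apart from whatever the number at the start of the titles stands for. Neither label names an allele of Cflar, Casp1, Fadd or Ifnar1, and whether any control embryo was heterozygous at Casp8 or Cflar is not given by the labels. The samples are bulk RNA, so fewer cells of a type and less RNA per cell cannot be told apart.

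Caspase-8 is the initiator protease of death receptor signaling. It pairs with itself or with cFLIP, the catalytically inactive relative encoded by Cflar, and is cut between its large and small catalytic subunits as it matures. It also restrains RIPK1 and RIPK3, the kinases that activate MLKL, which ruptures the plasma membrane in necroptosis. In the intestine, loss of this restraint is known to injure the epithelium and to provoke inflammation, so an intestine that carries an altered caspase-8 is commonly read out through its cytokine, interferon and antimicrobial genes.

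The change itself lies in the Casp8 codon that D387A names, which is shown because it is the single engineered difference at that locus. In GENCODE M21 the codon is at chr1:58844694-58844696 of GRCm38, on the plus strand, in exon 8 of a transcript that encodes 480 residues, and 2 of the 4 coding transcripts examined have an aspartate at that position. The 27 coding bases around it are given 5′ to 3′ with the aspartate codon in capitals, and D387A replaces that aspartate by alanine.
Casp8: actttagaagtgGATtcatcatctcac

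Only 1 gene, Olfm2, differed between the genotypes when the 18 libraries of the set were fitted together. It was lower in Casp8 1xDA/1xDA intestines, and no gene was called higher. A call required an adjusted p under 0.05 in the edgeR quasi-likelihood test, with p-values adjusted by the Benjamini-Hochberg method, and a log2 fold change beyond 1, so 0.00545% of the genes tested were called, either with or without the fold threshold. Without adjustment, 921 genes had a p under 0.05, which is 5.02% of those tested, with 465 higher and 456 lower. Whatever their p, 234 genes (1.27%) had a log2 fold change beyond 1, 89 higher (0.485%) and 145 lower (0.79%). DESeq2 called 3 genes (Depp1, Olfm2 and Reg3g) and limma-voom called 1.

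Most genes were measured closely enough to bound the difference. The 95% interval of the log2 fold change lay wholly between -1 and 1 for 15401 genes, 83.9% of those tested, and the median standard error was 0.141. The median log2 fold change of all genes was 0.0184. The libraries of the genotypes were also about as far from each other as from their own group. The root mean square difference in log2 CPM was 0.253 to 0.303 between Mlkl-/- libraries, 0.213 to 0.256 between Casp8 1xDA/1xDA libraries and 0.209 to 0.305 across genotypes.

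The reads on genes numbered 19713382 to 20961036 per Mlkl-/- library and 17943524 to 27721024 per Casp8 1xDA/1xDA library. Markers of neighboring organs were uneven between libraries. The stomach markers summed to 352 RPKM (reads per kilobase of gene, scaled to library size) in Mlkl-/- replicate 3 and 80.2 RPKM in Casp8 1xDA/1xDA replicate 3, and at most 5.22 RPKM in the other 4 libraries. Mlkl-/- replicate 3 also had the highest sum of pancreatic acinar markers, 62.0 RPKM against 10.8 to 18.2 RPKM elsewhere. Albumin stood at 135 RPKM in Mlkl-/- replicate 2 and at most 5.09 RPKM in the others. Alb, Gkn1, Gkn2 and Pga5 each overlapped between genotypes with 1 control library far above the rest. Replicates 1 and 3 were female and replicate 2 male in both groups, by Xist and Y-linked reads.

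The targeted genes came first. Casp8 stood at 25.9, 25.9 and 24.9 RPKM in Mlkl-/- and 26.5, 23.1 and 25.5 RPKM in Casp8 1xDA/1xDA intestines. The groups overlapped, and the log2 fold change was -0.03 (standard error 0.115, 95% interval -0.27 to 0.21). A change of 1 codon does not show in a count of reads per gene, so this level is no check of the allele.

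Cflar, which encodes cFLIP, was also at the same level within the error. It read 5.80, 6.42 and 6.02 RPKM in Mlkl-/- and 6.73, 5.58 and 6.04 RPKM in Casp8 1xDA/1xDA intestines. Its log2 fold change was 0.01, with a 95% interval from -0.20 to 0.21.

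Mlkl, the effector of necroptosis and the gene inactivated in the controls, was detected in all 6 libraries. It stood at 2.44, 2.39 and 2.67 RPKM in Mlkl-/- and at 6.94, 6.84 and 5.42 RPKM in Casp8 1xDA/1xDA intestines, so the groups did not overlap and the mean was 2.56 times higher with intact Mlkl. The edgeR fit of the 18 libraries gave a log2 fold change of 1.35 with a standard error of 0.531 and an adjusted p of 0.966. In the fit of the 6 libraries alone it was 1.33 (standard error 0.131), with an adjusted p of 0.00209. Mlkl reads were present in every other Mlkl-/- genotype too, from a mean of 1.42 RPKM in the control intestines of the C362A set (the intestines from the study of the catalytically dead caspase-8) to 29.7 RPKM where Cflar, Casp1 and Fadd were lost on top of the D387A allele, so the read count does not separate intact from deficient embryos.

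**Figure D1:**
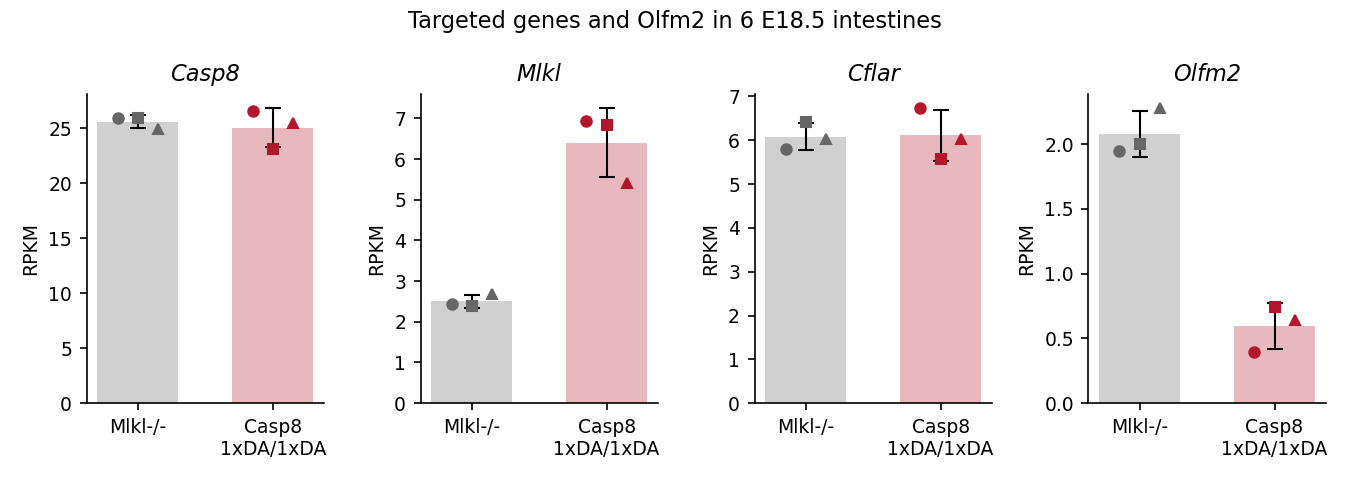
RPKM of Casp8, Mlkl, Cflar and Olfm2 in 3 Mlkl-/- (gray) and 3 Casp8 1xDA/1xDA (red) intestines. Bars are means, error bars SD, and the circle, square and triangle are replicates 1, 2 and 3. Casp8 and Cflar overlapped between genotypes, whereas Mlkl was higher and Olfm2 lower in every Casp8 1xDA/1xDA library.

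Olfm2 encodes olfactomedin 2, a secreted glycoprotein of the olfactomedin family best known from neural tissue and smooth muscle. It read 1.94, 2.00 and 2.28 RPKM in the Mlkl-/- and 0.398, 0.742 and 0.639 RPKM in the Casp8 1xDA/1xDA intestines. The lowest control library was thus above the highest mutant library. The mean was 3.50 times higher in the controls, and the log2 fold change was -1.77 with an adjusted p of 8.67e-04 in the edgeR test (standard error 0.194). The level was low in both groups, with 88 to 105 reads per control library and 15 to 41 reads per mutant library. With the replicate number as a block the log2 fold change was -1.77 with an adjusted p of 0.00477. In edgeR fits of the 6 libraries alone the call was lost without Casp8 1xDA/1xDA replicate 3 (adjusted p = 0.115), Mlkl-/- replicate 1 (adjusted p = 0.0737) or Mlkl-/- replicate 3 (adjusted p = 0.0795).

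The gene lies on chromosome 9 of GRCm38, from 20667690 to 20746349 on the minus strand, on another chromosome than Casp8 (chromosome 1) or Mlkl (chromosome 8). Among 88 other genes tested that start within 5000000 bases of it, 3 had an unadjusted p under 0.05, or 3.41%, against 5.02% of all genes. The same window around Casp8 held 69 tested genes, of which 1 (Orc2) had p under 0.05, and that around Mlkl held 76, of which 4 did. None was called in any of these windows apart from Olfm2 itself.

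The low level of Olfm2 was not shared by the other genotypes with the D387A allele. With Cflar and Mlkl also lost its mean was 2.07 RPKM, and it was 2.14 RPKM with the further loss of Casp1, 1.99 RPKM with the loss of Casp1 and Ifnar1, and 2.09 RPKM with the loss of Casp1 and Fadd. The Casp8 1xDA/1xDA Cflar-/- Mlkl-/- intestines were called higher than Casp8 1xDA/1xDA intestines, with a log2 fold change of 1.76 and an adjusted p of 3.49e-07 by the same edgeR test. Against the Mlkl-/- controls of the C362A set, which stood at 2.17, 1.98 and 1.45 RPKM, Casp8 1xDA/1xDA intestines were again lower (log2 fold change -1.58, adjusted p = 1.38e-04, edgeR fit of 30 libraries).

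Olfm2 was intermediate in the genotypes with catalytically dead caspase-8. The mean was 1.21 RPKM in Casp8 C362A/C362A Mlkl-/-, 1.06 RPKM in Casp8 C362A/C362A Mlkl-/- Casp1-/- and 1.13 RPKM in Casp8 C362A/C362A Cflar-/- Mlkl-/- intestines. In an edgeR fit of these 12 libraries, the log2 fold changes from their own controls were -0.63, -0.82 and -0.72, with adjusted p of 0.0714, 0.0308 and 0.0358. The 3 mutant groups of that set overlapped one another. In mouse embryonic fibroblasts the level was 2.05 RPKM in Mlkl-/- cells, and cells with the D387A allele that lacked Cflar and Mlkl had 1.95 RPKM.

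**Figure D2:**
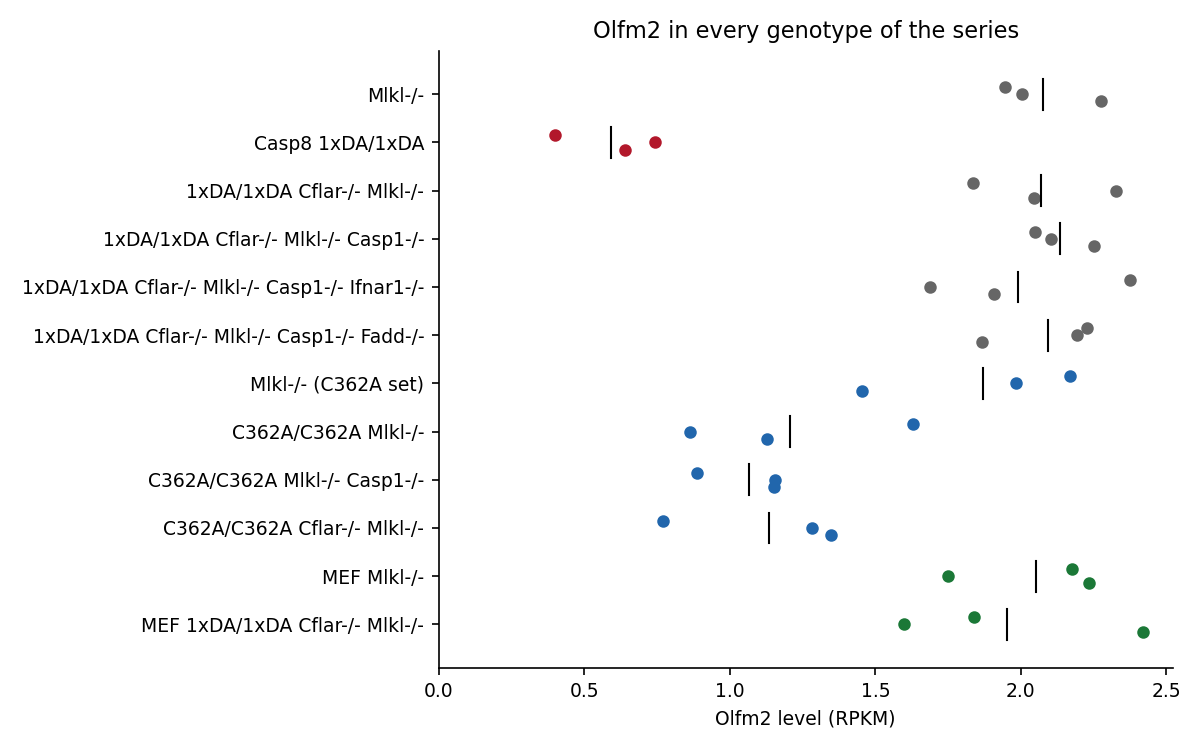
Olfm2 in RPKM (horizontal axis) in the 12 genotypes and cell types of the series, 3 libraries each (points) with their mean (bar). Red is Casp8 1xDA/1xDA, gray the other intestines of the D387A set, blue the C362A set and green the fibroblasts (MEF). The red points, 0.398 to 0.742 RPKM, are the lowest of the plot and overlap no other group.

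Other members of the olfactomedin family were nearer the controls. Of the 8 genes, 7 were tested, Olfm2 included, all with a negative log2 fold change, and the median was -0.13 against 0.0184 for all genes. Without Casp8 1xDA/1xDA replicate 2 it was -0.239 with 1 member positive. Olfml3 stood at 10.7, 10.6 and 11.7 RPKM in Mlkl-/- and 9.35, 8.81 and 8.26 RPKM in Casp8 1xDA/1xDA intestines, with a log2 fold change of -0.32 and an unadjusted p of 0.00231, which turned to a log2 fold change of 0.19 with the Mlkl-/- intestines of the C362A set. Olfm4, a marker of intestinal stem cells, overlapped between genotypes at 28.6 to 34.7 against 27.1 to 31.3 RPKM. Over the 18 libraries of the set, the genes most like Olfm2 in log2 CPM included Brinp2 (Pearson r = 0.848), Dgkh, Ube2v2 and Mapk12, and those most unlike it were Sptlc1 (r = -0.811), Slc8b1, Smim14, Cdnf and Ppp1r27, a description in which the same 3 low libraries weigh on every r.

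The spread estimated from all 18 libraries is shared with 4 genotypes that also lack Cflar and Mlkl. A fit of the 6 libraries alone, planned as an alternative, tested 17061 genes and called 7, or 0.041%. Reg3b, Reg3g, Mlkl and Fabp6 were higher (0.0234%) and Mt2, Olfm2 and Depp1 lower (0.0176%) in Casp8 1xDA/1xDA intestines. At any fold 17 genes passed, 0.0996% of those tested, with 9 higher (0.0528%) and 8 lower (0.0469%), and 1797 had an unadjusted p under 0.05, or 10.5%. The same 7 were called with the replicate number as a block, which raised the number passing at any fold to 45, with DESeq2 on the 6 libraries, which raised it to 131, and 6 of them (all but Fabp6) with limma-voom. Leaving out 1 library at a time gave 3 to 6 calls and 3 to 8 genes at any fold, with the fewest of both without Mlkl-/- replicate 1.

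Reg3g and Reg3b encode secreted lectins that the intestinal epithelium makes against bacteria and in response to injury. Reg3g read 5.17, 3.41 and 4.15 RPKM in Mlkl-/- and 35.2, 17.4 and 27.1 RPKM in Casp8 1xDA/1xDA intestines. Every mutant library exceeded every control, and the mean was 6.26 times higher. The edgeR fit of the 6 libraries gave a log2 fold change of 2.61 with a standard error of 0.245 and an adjusted p of 0.00203. That of the 18 gave 2.64 with a standard error of 0.503 and an adjusted p of 0.446. Reg3b read 45.7, 27.4 and 34.9 RPKM in Mlkl-/- and 147, 109 and 128 RPKM in Casp8 1xDA/1xDA intestines, again without overlap and with a mean 3.55 times higher. Its log2 fold change was 1.80 (adjusted p = 0.00138) over 6 libraries and 1.83 (adjusted p = 0.711) over 18 with the same edgeR test. Both were called with each of the 6 libraries left out of the smaller fit.

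Among the genotypes that carry D387A and also lack Cflar, single libraries ranged from 153 to 6912 RPKM for Reg3g in the 3 with intact Fadd and from 4.84 to 6.50 RPKM in the 1 without Fadd. For Reg3b they ranged from 471 to 14462 RPKM and from 15.2 to 27.3 RPKM. Casp8 1xDA/1xDA intestines thus lay below the former and above the latter. Casp8 1xDA/1xDA Cflar-/- Mlkl-/- intestines exceeded Casp8 1xDA/1xDA intestines with a log2 fold change of 7.93 for Reg3g and 6.67 for Reg3b, both called by edgeR. Against the Mlkl-/- intestines of the C362A set, Reg3g had a log2 fold change of 2.85 (adjusted p = 2.90e-04) and Reg3b of 2.13 (adjusted p = 7.07e-04) in the edgeR fit of 30 libraries. The groups of Mlkl-/- intestines themselves differed by 0.21 for Reg3g and 0.30 for Reg3b (adjusted p of 0.826 and 0.634).

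Reg3b and Reg3g are close copies that lie in 1 cluster of Reg genes on chromosome 6. Only unique alignments were kept, so reads that align to both would have been dropped. Their promoters are shown because both genes differed in the same direction in the 6-library fit. RefSeq gives the 250 bases before the start of Reg3b as chr6:78370635-78370884 on the plus strand and of Reg3g as chr6:78468875-78469124 on the minus strand of GRCm38.p6. Capitals mark the longest run that both share, 20 bases that end at the start site.
Reg3b: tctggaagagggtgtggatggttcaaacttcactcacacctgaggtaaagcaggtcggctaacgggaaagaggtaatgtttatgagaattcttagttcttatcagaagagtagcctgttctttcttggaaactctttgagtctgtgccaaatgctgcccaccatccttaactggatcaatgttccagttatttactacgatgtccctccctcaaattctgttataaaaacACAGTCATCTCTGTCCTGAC
Reg3g: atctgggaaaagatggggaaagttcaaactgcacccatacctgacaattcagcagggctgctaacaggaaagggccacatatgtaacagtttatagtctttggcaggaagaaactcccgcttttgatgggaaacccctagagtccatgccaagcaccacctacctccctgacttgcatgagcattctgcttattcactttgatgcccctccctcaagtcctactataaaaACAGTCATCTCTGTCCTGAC
The palindrome TTCNNNGAA, the core of the sites that STAT factors bind, occurred 1 time in the Reg3b window and not in that of Reg3g. It was found in 7.02% of the 32851 promoter windows of this length, read on both strands.

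Metallothioneins are small proteins that bind zinc and copper and rise with metals, glucocorticoids and stress. Mt2 read 61.2, 75.0 and 56.6 RPKM in Mlkl-/- and 19.4, 17.7 and 9.57 RPKM in Casp8 1xDA/1xDA intestines. All controls were above all mutants, and the mean was 4.14 times higher in the controls. In the edgeR fit of 6 libraries the log2 fold change of -2.09 had a standard error of 0.199 and an adjusted p of 0.00209, and in that of 18 it was -2.06 with an adjusted p of 0.96. Mt2 was called with each library left out of the smaller fit, and against the Mlkl-/- intestines of the C362A set it had a log2 fold change of -2.35 (adjusted p = 0.0127). Its neighbor Mt1 read 266, 277 and 208 RPKM in Mlkl-/- and 168, 158 and 116 RPKM in Casp8 1xDA/1xDA intestines without overlap, but its log2 fold change of -0.79 had an adjusted p of 0.0651 over 6 libraries by the same edgeR test and it passed with the replicate block and with DESeq2.

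The promoters of this pair are shown for the motif that the metal-sensing factor MTF1 recognizes, whose core was searched as TGCACNC or TGCGCNC on both strands. RefSeq places the 250 bases before Mt1 at chr8:94178839-94179088 and those before Mt2 at chr8:94172368-94172617, both on the plus strand of GRCm38.p6. Capitals mark the cores.
Mt1: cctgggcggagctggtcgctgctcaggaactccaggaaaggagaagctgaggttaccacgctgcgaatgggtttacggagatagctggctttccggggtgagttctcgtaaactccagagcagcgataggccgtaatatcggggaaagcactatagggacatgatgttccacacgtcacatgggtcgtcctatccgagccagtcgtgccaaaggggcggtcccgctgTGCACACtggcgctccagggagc
Mt2: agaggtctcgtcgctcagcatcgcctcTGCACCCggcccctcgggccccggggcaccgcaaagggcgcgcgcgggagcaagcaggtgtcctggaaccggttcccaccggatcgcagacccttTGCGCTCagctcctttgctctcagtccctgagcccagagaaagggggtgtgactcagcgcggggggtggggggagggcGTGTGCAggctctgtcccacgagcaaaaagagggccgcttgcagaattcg
The window held 1 core before Mt1 and 3 before Mt2, where 21.4% of all promoter windows held a core and 5.17% held 2 or more. The counts depend on the annotated starts, and bases outside these windows were not searched.

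Fabp6, the bile acid carrier of the ileal enterocyte, read 82.4, 74.6 and 66.4 RPKM in Mlkl-/- and 180, 117 and 217 RPKM in Casp8 1xDA/1xDA intestines. The groups did not overlap, and edgeR gave a log2 fold change of 1.18 over 6 libraries with an adjusted p of 0.0405, and of 1.20 over 18 with an adjusted p of 0.966. The call was the least stable of the 7, since leaving out any library but Casp8 1xDA/1xDA replicate 2 ended it. In the Mlkl-/- intestines of the C362A set Fabp6 stood at 16.2, 30.8 and 40.1 RPKM. Against these the log2 fold change was 2.60 (adjusted p = 0.00915, edgeR fit of 30 libraries). The groups of Mlkl-/- intestines themselves differed by 1.40 (adjusted p = 0.142), more than the genotypes of the D387A set did. Depp1, a gene induced by FOXO factors in fasting, read 26.5, 32.8 and 23.1 RPKM in Mlkl-/- and 11.2, 12.1 and 15.7 RPKM in Casp8 1xDA/1xDA intestines. It had a log2 fold change of -1.09 (adjusted p = 0.0225) over 6 libraries with the same test, and lost the call in 4 of the 6 fits with a library left out. Against the Mlkl-/- intestines of the C362A set it was not called (-0.92, adjusted p = 0.116, edgeR fit of 30 libraries).

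**Figure D3:**
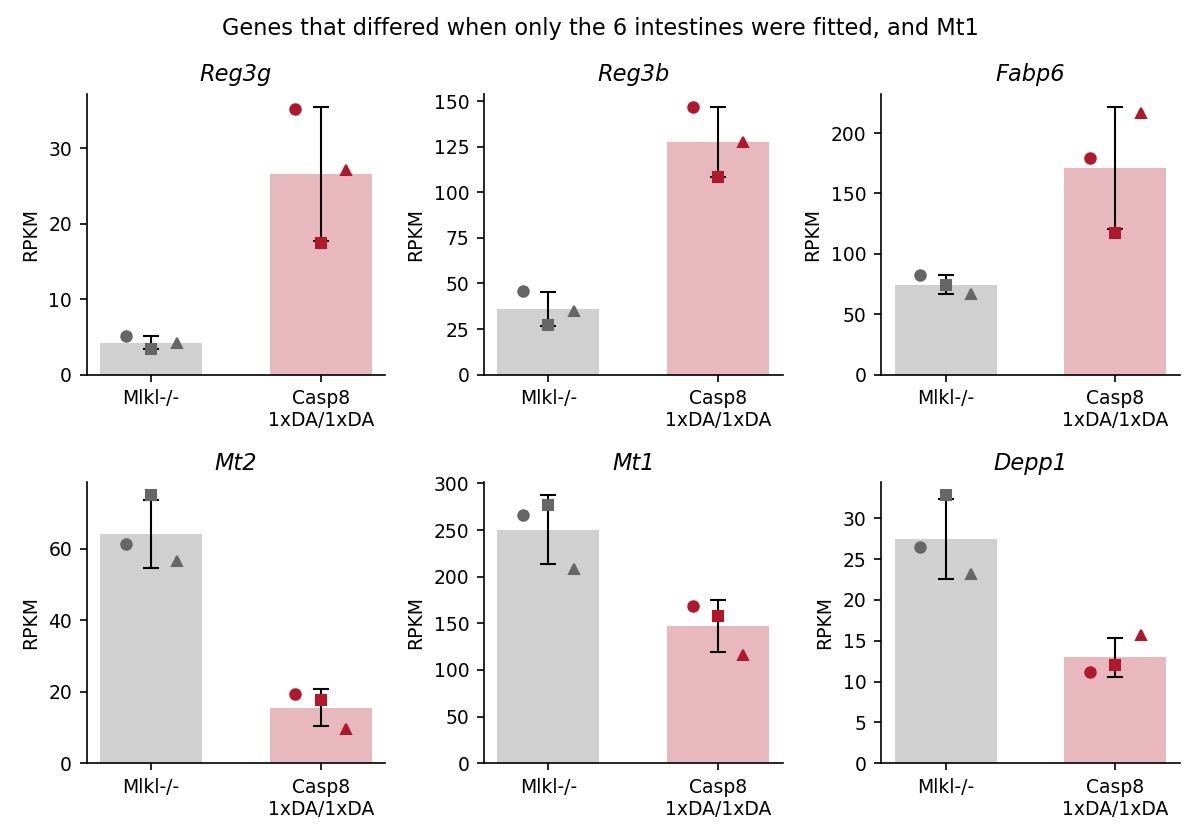
RPKM of Reg3g, Reg3b, Fabp6, Mt2, Mt1 and Depp1 in 3 Mlkl-/- (gray) and 3 Casp8 1xDA/1xDA (red) intestines, with means (bars), SD (error bars) and replicates 1, 2 and 3 (circle, square, triangle). The genotypes do not overlap for any of the 6 genes, with Reg3g, Reg3b and Fabp6 higher and Mt2, Mt1 and Depp1 lower in the mutant.

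The 10 other genes that passed at any fold over the 6 libraries changed by less than 1 on the log2 scale. Apart from Ppp1r3c without Casp8 1xDA/1xDA replicate 2, none of them passed in the 6 fits with a library left out, and limma-voom passed 5 of the 10 (Col23a1, Crybg1, Ifitm1, Ppp1r3c and Shisa3). Lower in Casp8 1xDA/1xDA intestines were Ppp1r3c, a glycogen-targeting subunit of protein phosphatase 1 (-0.77, adjusted p = 0.0217), Sik1, a kinase of cAMP signaling (-0.60, adjusted p = 0.0469), the interferon-induced Ifitm1 (-0.54, adjusted p = 0.04), Shisa3 and Col23a1. With the C362A-set controls Shisa3 was at -0.08, Sik1 at -0.66 and Ppp1r3c at -1.08. The values nearest 0 over all alternatives were -0.10 for Ifitm1 and -0.21 for Col23a1. Higher were the transporter Abcc6 (0.48, but -0.07 with the C362A-set controls), the keratin of villus tip cells Krt20 (0.40), Sectm1b, Crybg1 and Gm42031, all by edgeR. Sik1 read 3.73, 3.94 and 4.20 RPKM in Mlkl-/- and 2.50, 2.72 and 2.68 RPKM in Casp8 1xDA/1xDA intestines, and had the second smallest p of the 18-library fit (log2 fold change -0.58, adjusted p = 0.105).

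Among genes whose groups did not overlap, which were 15.6% of all genes, the 10 of smallest p in each direction spanned log2 fold changes of 0.31 to 2.64 and -1.77 to -0.28 in the 18-library fit. Beside those already named they included Traf1, an adaptor of the TNF receptors, at 0.747, 0.493 and 0.469 against 0.756, 1.11 and 0.949 RPKM, and the sodium-proton exchanger Slc9a3 at 13.7 to 14.9 against 17.7 to 20.7 RPKM. Slc9a3 turned to a log2 fold change of -0.09 with the C362A-set controls, where Traf1 had 0.63. Il7r, the interleukin 7 receptor, read 0.550, 0.491 and 0.483 RPKM in Mlkl-/- and 0.0955, 0.247 and 0.254 RPKM in Casp8 1xDA/1xDA intestines (log2 fold change -1.29, adjusted p = 0.96, edgeR). Pygl, the liver form of glycogen phosphorylase, had a log2 fold change of -0.38. None passed the adjustment in that fit apart from Olfm2.

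The 24 inflammatory genes that the study followed, 12 chemokines and cytokines and 12 genes of pathogen defense, gave no call. They were chosen by the study on intestines of this set, and they passed the filter mostly through the genotypes that also lack Cflar, since 9 of the 24 were tested when the 6 libraries were fitted alone. Of all genes 0.00545% were called in the same fit. The median log2 fold change was 0.0343, with 13 positive and 11 negative. Ifitm1, at 27.1, 29.2 and 26.1 RPKM in Mlkl-/- and 19.1, 18.9 and 19.6 RPKM in Casp8 1xDA/1xDA intestines, was the single member with an unadjusted p under 0.05 (0.00931), and it was lower in the mutant. Its log2 fold change nearest 0 over all alternatives was -0.10. The 24 genes together summed to 38.7 to 44.3 RPKM in the control and 28.9 to 38.2 RPKM in the mutant libraries. The median of the 12 pathogen defense genes was 0.25, and -0.23 without Casp8 1xDA/1xDA replicate 2.

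These genes were measured less closely than most. In the 18-library fit 1 of the 24 had a 95% interval within -1 and 1, and in the 6-library fit 4 of the 9 tested did. For Cxcl10 the standard error was 0.801 over 18 libraries and 0.335 over 6. Many members also had few reads. Cxcl9, a chemokine induced by interferon gamma, had 9, 5 and 4 reads in the control and 2, 6 and 8 in the mutant libraries. Cxcl10 had 21, 40 and 30 against 17, 46 and 26 reads, and Il1b had 12, 18 and 6 against 8, 9 and 9 reads. For Il6, there were 0, 2 and 1 reads against none in the mutant libraries, too few for a fold. Nos2, the inducible nitric oxide synthase, had 18, 19 and 10 against 21, 31 and 28 reads, without overlap and with an unadjusted p of 0.523 in the edgeR fit.

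The same 24 genes were all called higher when Cflar and Mlkl were missing as well. In Casp8 1xDA/1xDA Cflar-/- Mlkl-/- against Casp8 1xDA/1xDA intestines, 4431 genes were called, 24.1% of those tested, with 1869 higher (10.2%) and 2562 lower (14%). The list was chosen by the study on intestines of this genotype, and most of its members had enough reads to test only through genotypes where they are high, so the count was fixed by that choice and is given as a description. The log2 fold changes ran from 2.58 for Mx1 to 8.30 for Cxcl9 among the members with a read in Casp8 1xDA/1xDA libraries, and Il6 had none there. The comparisons share the Casp8 1xDA/1xDA libraries, so their values are given side by side and not as independent observations.

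**Figure D4:**
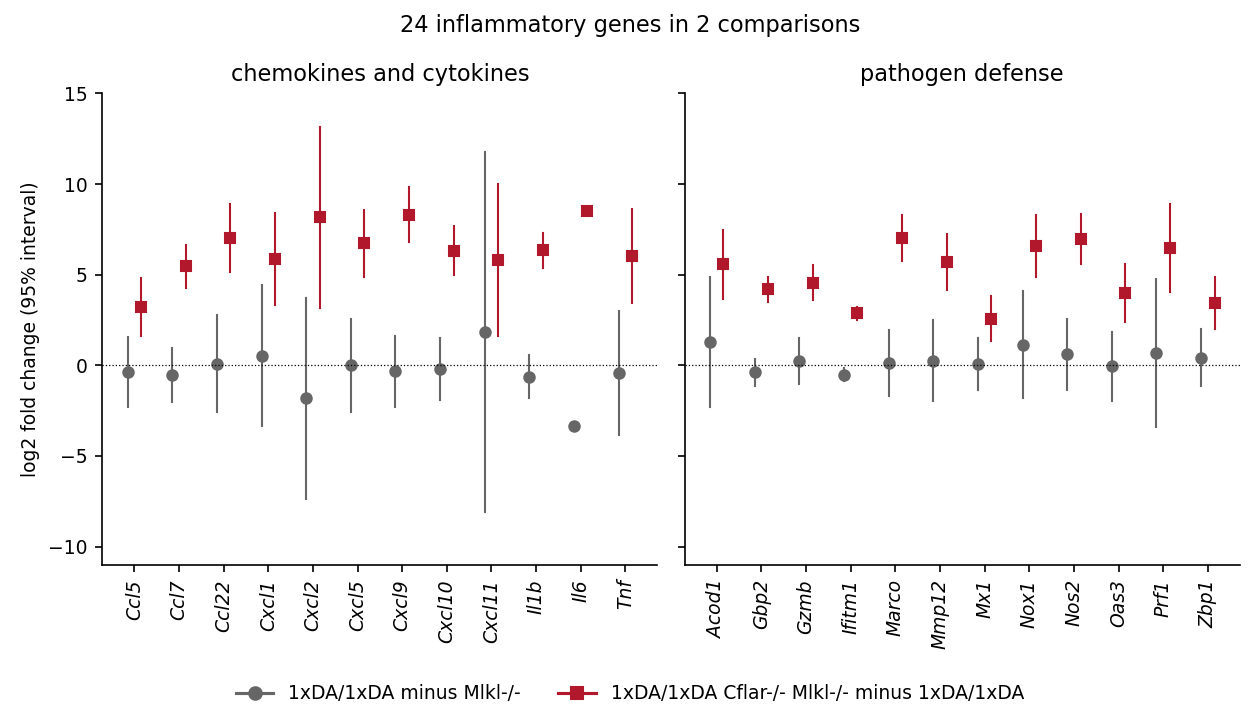
Log2 fold change (vertical axis) with its 95% interval for 12 chemokines and cytokines (left) and 12 pathogen defense genes (right), for Casp8 1xDA/1xDA minus Mlkl-/- (gray circles) and Casp8 1xDA/1xDA Cflar-/- Mlkl-/- minus Casp8 1xDA/1xDA intestines (red squares). The gray values lie on both sides of 0 with wide intervals and all red values are above 2.5. Il6 has no interval because 1 group had no reads, and its points depend on the prior count and are no measure of its fold.

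Genes of the death receptor complexes were close to the controls. All 22 were tested. Over 18 libraries 1 member, Mlkl, was higher at an unadjusted p under 0.05, where 2.53% of all genes were, and none was lower. Over 6 libraries 2 were higher, where 5.64% of all genes were, and none was lower. The log2 fold changes of the 22 genes had a median of 0.0786 over 18 libraries, and 20 of the 22 had a 95% interval within -1 and 1. Ripk3, the kinase that phosphorylates MLKL, stood at 16.6, 18.3 and 17.2 against 20.6, 21.6 and 18.2 RPKM, and its groups overlapped. Ripk1, the kinase upstream of RIPK3, had a log2 fold change of 0.04 with a standard error of 0.0973, and Fadd, the adaptor that recruits caspase-8, one of 0.07 with a standard error of 0.0838. Zbp1, the nucleic acid sensor that engages RIPK3, read 2.59, 3.98 and 2.91 RPKM in Mlkl-/- and 2.63, 7.41 and 2.56 RPKM in Casp8 1xDA/1xDA intestines, with replicate 2 the highest of each group. The 21 genes of intrinsic apoptosis all had an interval within -1 and 1, and none had p under 0.05 over 18 libraries, where 5.02% of all genes did. Over 6 libraries 1 was higher and 1 lower, where 5.64% and 4.89% of all genes were. Without Casp8 1xDA/1xDA replicate 2, 2 were higher in the 18-library fit, where 3.14% of all genes were.

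Interferon and antigen presentation genes gave no call either. The 24 interferon-stimulated antiviral genes had a median of 0.00652, with 12 positive and 12 negative and none at p under 0.05 over 18 libraries. The split turned on single libraries, with 4 positive and a median of -0.35 without Casp8 1xDA/1xDA replicate 2, and 21 positive and a median of 0.23 without Mlkl-/- replicate 2. Over 6 libraries none was at p under 0.05, and with the replicate block 5 were higher and 2 lower, where 6.31% and 5.89% of all genes were. The 25 GTPases and genes of antigen presentation had a median of 0.16, with 18 positive, and none at p under 0.05 over 18 libraries. The median was 0.0447 without Casp8 1xDA/1xDA replicate 2 and 0.264 without Mlkl-/- replicate 2. Over 6 libraries 5 were higher and 2 lower at p under 0.05, where 5.64% and 4.89% of all genes were, and with the replicate block 8 were higher and 2 lower, against 6.31% and 5.89%. B2m, the light chain of class I molecules, read 552, 604 and 556 against 616, 809 and 651 RPKM without overlap, with an unadjusted p of 0.318 over 18 and 0.0261 over 6 libraries and an adjusted p of 0.391 over 6 (edgeR). Of 21 NF-kB targets and regulators, 1 was higher (Traf1) and 1 lower (the adhesion molecule Vcam1) at p under 0.05 over 18 libraries. Of all genes 2.53% were higher and 2.48% lower. The values of Traf1 and Vcam1 nearest 0 over all alternatives were 0.56 and -0.05. The median of the list was 0.12, or 0.0602 without Mlkl-/- replicate 3 and 0.071 without Casp8 1xDA/1xDA replicate 1.

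Genes of the absorptive epithelium leaned upward in Casp8 1xDA/1xDA intestines without a call. All 24 genes of brush border and lipid absorption had a positive log2 fold change, with a median of 0.24. Of them 3 were higher at an unadjusted p under 0.05, where 2.53% of all genes were, and none was lower. The peptide transporter Slc15a1 read 18.1 to 19.6 RPKM in Mlkl-/- and 22.0 to 29.3 RPKM in Casp8 1xDA/1xDA intestines, the glucose transporter Slc5a1 101, 100.1 and 94.5 against 131, 106 and 128 RPKM, and the peptidase Dpp4 46.0, 40.5 and 39.9 against 49.7, 47.0 and 53.9 RPKM. Their lowest log2 fold changes over all alternatives were 0.28 for Slc15a1, 0.02 for Slc5a1 and 0.17 for Dpp4. The groups did not overlap for these 3 or for 8 of the 24 in all, where 9.37% of all genes lay above. With 6 libraries, 10 of the 24 were higher at p under 0.05 against 5.64% of all genes, and leaving out 1 library gave 0 to 3 in the 18-library fit, 0 without Casp8 1xDA/1xDA replicate 3.

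The 7 genes by which the fetal enterocyte takes up and digests luminal protein also all had positive values, with a median of 0.21. Dab2, an endocytic adaptor, was higher at an unadjusted p of 0.0419, though at -0.0081 with the C362A-set controls, (45.7, 44.5 and 38.8 against 54.1, 50.6 and 54.7 RPKM), with no member at p under 0.05 in 4 of the 6 fits with a library left out (without Casp8 1xDA/1xDA replicate 1 or 3 or Mlkl-/- replicate 2 or 3). In that list, the protease Lgmn read 402, 382 and 321 against 493, 450 and 459 RPKM without overlap. Among the 10 epithelial markers, 7 lay above the controls without overlap, where 9.37% of all genes did, and the median was 0.20. Their summed level was 34500 to 39300 RPKM in Mlkl-/- and 40900 to 43000 RPKM in Casp8 1xDA/1xDA intestines, the lowest in Mlkl-/- replicate 3, the library with the most stomach RNA. The part of that library's makeup in these values was not tested beyond leaving it out, when the epithelial median was 0.14 and the brush border median 0.18.

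Sensors and effectors of the inflammasome were mostly positive too. Of 23 genes 19 were positive, with a median of 0.21, and 4 were higher at an unadjusted p under 0.05, where 2.53% of all genes were. These were Nlrc4 (12.3, 11.5 and 11.2 against 15.8, 12.9 and 14.4 RPKM) and its partners Naip1 and Naip5, which detect bacterial flagellin and secretion systems, and Casp1 (41.5, 42.6 and 44.4 against 50.7, 58.7 and 48.6 RPKM). Against the Mlkl-/- intestines of the C362A set Nlrc4 (-0.32) and Naip5 (-0.53) turned direction and Casp1 (0.42) and Naip1 (0.19) kept it. These 4 were among 9 of the 23 that lay above the controls without overlap, where 9.37% of all genes did. With 6 libraries 8 of 21 were higher at p under 0.05, where 5.64% of all genes were, and without Casp8 1xDA/1xDA replicate 1 none was in the 18-library fit. The adaptor Pycard overlapped, at 72.9 to 80.8 against 73.3 to 82.8 RPKM.

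Fibroblast markers leaned the other way. All 7 had a negative log2 fold change, with a median of -0.30, and 5 were lower at an unadjusted p under 0.05, where 2.48% of all genes were. Decorin (Dcn) read 94.0, 110.5 and 111 RPKM in Mlkl-/- and 71.9, 90.0 and 85.3 RPKM in Casp8 1xDA/1xDA intestines, and Lum, another matrix proteoglycan, 34.1, 42.4 and 42.5 against 28.3, 32.1 and 30.3 RPKM. Dpt, Col3a1 and Col1a2 were the others, whereas Col1a1 overlapped. Against the Mlkl-/- intestines of the C362A set the direction turned, with log2 fold changes of 0.40 for Dcn, 0.31 for Lum, 0.36 for Col3a1, 0.46 for Col1a2, 0.67 for Col1a1 and 0.01 for Dpt. None passed the adjustment over 18 libraries. The count was 2 without Casp8 1xDA/1xDA replicate 1 or without Mlkl-/- replicate 3, and Dcn and Lum passed at any fold with 6 libraries in the fit with the replicate block and in DESeq2, though not in the fit without a block.

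The 4 mesothelial markers were all negative, with a median of -0.27 and none at an unadjusted p under 0.05 over 18 libraries. Over 6 libraries 1 was lower at p under 0.05, where 4.89% of all genes were, and 3 were with the replicate block, where 5.89% were, while without Casp8 1xDA/1xDA replicate 1 the median was -0.11 over 18. For other tissue layers the medians were -0.0622 for 10 smooth muscle, -0.0911 for 12 enteric neuron and glia, -0.041 for 6 endothelial and -0.0692 for 8 macrophage markers, with none at p under 0.05 in the 18-library fit. Without Casp8 1xDA/1xDA replicate 1, in which the smooth muscle markers summed to 2200 RPKM against 2820 to 3200 RPKM in the others, the smooth muscle median was 0.0804 with 9 of 10 positive and that of neurons and glia -0.00213, and without Mlkl-/- replicate 2 the endothelial median was 0.0111. The macrophage median ran from -0.127 to -0.0404 and the neuron and glia median down to -0.152 with a library left out. Neutrophil markers summed to 5.85 to 35.6 RPKM in Mlkl-/- and 10.4 to 29.4 RPKM in Casp8 1xDA/1xDA intestines, and 4 of the 11 lymphocyte markers had enough reads to test. Cell cycle genes had a median of -0.00656 over 17 genes, each with an interval within -1 and 1, and the median ran from -0.0645 to 0.0136 with a library left out. Of the 16 genes of cholesterol synthesis, 14 were negative with a median of -0.18, and 9 lay below the controls without overlap, where 6.26% of all genes did. Fdps, a farnesyl diphosphate synthase, was the member with an unadjusted p under 0.05 over 18 libraries (4.89, 5.57 and 4.23 against 3.12, 3.59 and 3.68 RPKM), and its log2 fold change of -0.49 turned to 0.14 with the C362A-set controls. No member was at p under 0.05 without Casp8 1xDA/1xDA replicate 1 or without Mlkl-/- replicate 2, and 9 were lower at p under 0.05 over 6, where 4.89% of all genes were.

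**Figure D5:**
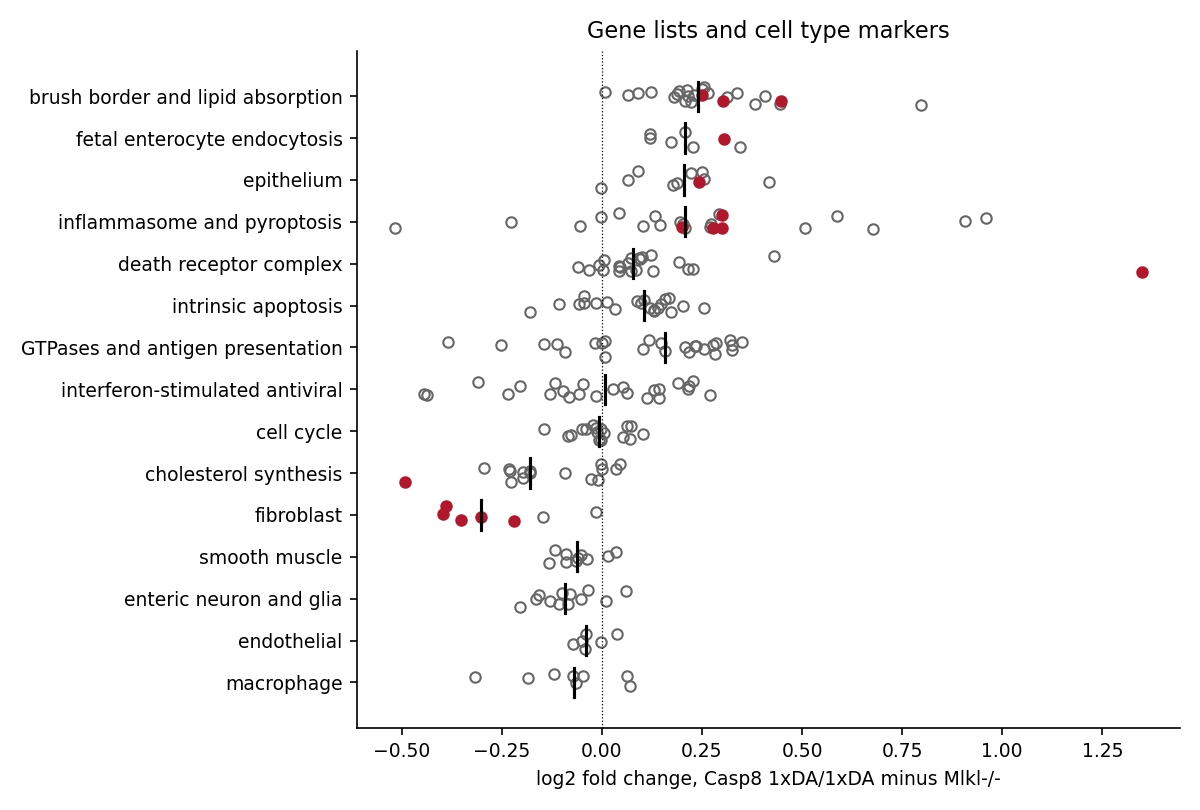
Log2 fold change of Casp8 1xDA/1xDA minus Mlkl-/- intestines (horizontal axis) for the members of 15 gene lists, 1 point per gene, from the 18-library fit. Filled red points have an unadjusted p under 0.05 and black bars are medians. Brush border genes all lie above 0, fibroblast markers all lie below 0, and Mlkl is the red point at 1.35.

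The choice of control group changed the count more than any other setting. Against the Mlkl-/- intestines of the C362A set, 510 genes were called, 2.60% of 19643, with 452 lower (2.3%) and 58 higher (0.295%) in Casp8 1xDA/1xDA intestines. The groups of Mlkl-/- intestines, of 1 labelled genotype and age, differed from each other at 561 genes, or 2.86%, with 488 lower (2.48%) and 73 higher (0.372%) in the control group of the D387A set. That count was 208 without replicate 3 of the C362A-set controls, 365 without replicate 1 of the D387A-set controls and 347 when those 6 libraries were fitted alone. Each of these counts was above the 1 gene called between Casp8 1xDA/1xDA and its own controls, and above the 7 called over 6 libraries. What sets the groups of controls apart is not given in the labels, so the set and any other difference between them cannot be told apart. Olfm2 did not differ between them (log2 fold change 0.20, adjusted p = 0.586, edgeR).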

How the data were processed

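RNA sequencing of E18.5 intestines was used, 3 libraries per genotype. The authors aligned single-end reads to GRCm38 with GSNAP, kept unique alignments and deposited raw counts per gene with gene widths. The counting program, annotation and strand setting are not given in the sources used here. The methods name a stranded TruSeq kit and the labels an unstranded TruSeq kit and another sequencer. Overlapping and antisense genes and close copies are therefore uncertain.

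Counts of the 18 D387A-set libraries were fitted with edgeR 4.0.16 in R 4.3.3 (filterByExpr with minimum count 10 and minimum total 15, TMM, quasi-likelihood test, prior count 0.125). RPKM was computed from deposited counts, deposited widths and TMM-scaled totals. Alternatives included limma-voom 3.58.1, DESeq2 1.42.0, other size factors and filters, the 6 libraries alone, all 30 intestine libraries, thinning, replicate and sex terms, other controls and each library left out. Fits were tested on simulated data. Of 52636 listed genes, 52403 were named from GENCODE M21. Library depth was 17943524 to 27721024 reads on genes, and no pair of libraries was a copy.

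Same-numbered libraries of the genotypes deviated together (correlations 0.166, 0.249 and 0.229 over all genes tested, 0.112, 0.086 and 0.188 without chromosomes X and Y). The pairing comes from these data and the shared sex of same-numbered embryos, not from a stated litter. The labels call the libraries biological replicates. The p-values weigh each difference against an estimated spread between embryos. In the fit of the whole set that spread was estimated over all its genotypes, so it includes variation within the other mutants. Only the fits of the compared genotypes alone took it from these embryos.

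Named genes were the targeted genes, called genes, the 10 of smallest p in each direction among those without overlap, the death receptor, study and olfactomedin lists, the smallest p, any p under 0.05 and the 2 highest levels of other lists, and the 5 most and 5 least like Olfm2, of which 1 is not reported here. Those of the 6-library fit at any fold and Mt1 were added after their values were seen. The genotypes, lists and rules were chosen with earlier results of these data known.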

Additional observations from a re-analysis of the deposited data

How the results depend on the processing

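The count of called genes was 1 in 14 of 30 alternatives, all of them edgeR or limma-voom fits of the 18-library set. It was 3 with DESeq2, 14 without a filter on low counts (Olfm2, Reg3b, Reg3g, Mt2, Depp1 and 9 others, Gkn1, Gkn2 and Pga5 among them), 2 with all 30 intestine libraries, 7 with the 6 libraries alone, 10 with both groups of Mlkl-/- intestines pooled and 510 with those of the C362A set. Added after seeing the data, the 6-library fit gave 7 with the replicate block, 6 with limma-voom, 7 with DESeq2 and 7 with relative log expression. At any fold these counts were 5, 16, 2, 17, 41, 2387, 45, 11, 131 and 17. Genes at an unadjusted p under 0.05 numbered 1797 over 6 libraries, 5277 and 2316 with the other controls and pooled controls, and 2081, 1782, 1400 and 1792 in the added fits. Without 1 library, calls ranged from 1 to 6, any-fold counts from 1 to 8 and unadjusted counts from 530 to 1080 over 18 libraries and over 6 they were 1187, 2473, 1575, 1885, 1447 and 1273.

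The log2 fold change of Olfm2 ranged from -1.98 to -1.59 with a library left out, and lost its call over 6 libraries without Casp8 1xDA/1xDA replicate 3 (-1.83), Mlkl-/- replicate 1 (-1.84) or Mlkl-/- replicate 3 (-1.71). Mlkl ranged from 1.26 to 1.46 with a library left out, passed over 6 libraries at 1.28, 1.26, 1.44, 1.30 and 1.39 in 5 of those 6 fits (all but without Mlkl-/- replicate 1), and passed with the 6 libraries (1.33, block 1.32, limma-voom 1.31, DESeq2 1.33, relative log expression 1.33), and with the other and pooled controls (2.23 and 1.79). Casp8 moved to -0.18 and Cflar to -0.16 with the C362A controls, and ranged from -0.09 to 0.02 and from -0.08 to 0.07 with a library left out. Of the study's inflammatory genes, 1 was called with the C362A controls, and 0 in every other alternative. The genes called between the groups of Mlkl-/- intestines numbered 235 with a mean of at least 50 reads, 347 with those 6 libraries alone and 208 to 831 with a library left out. The replicate block in the 18-library fit changed no call. The cause of these changes was not tested. The main limits are 3 embryos per genotype, low read numbers for the chemokines and cytokines, and groups that differ at Casp8 and Mlkl together. The groups also differ in the number at the start of their titles, and whether they shared litters or a batch is not given.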
